A study of Mus musculus with 18 samples.

Results

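Wild-type fibroblasts treated for 1 h with the phorbol ester TPA were compared with untreated wild-type fibroblasts. The comparison rests on 6 of the 18 arrays of the series, the 3 labelled wild type at 1 h and the 3 labelled wild type at 0 h. The cells were primary embryonic fibroblasts of male C57BL/6 mice, taken at embryonic day 13.5 and kept in medium with 10% serum, and TPA was given at 100 ng/ml. The other 12 arrays hold wild-type cells at 3 h and littermate cells with a knockout of Dusp5 at 0, 1 and 3 h, and are used here only beside the wild-type 1 h values. No group received solvent alone, so a difference from the 0 h cells also holds any effect of solvent, handling or the hour itself. The labels speak of triplicates without saying whether these were separate cultures, so the p-values here speak for the spread between arrays alone, and that spread may be technical. Bulk RNA cannot tell fewer cells of a type from less RNA per cell.

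TPA stands in for the lipid messenger diacylglycerol and switches on protein kinase C, which in turn feeds the Ras, Raf, MEK and ERK kinase cascade. ERK enters the nucleus and activates ternary complex factors that sit with SRF on CArG boxes, so that immediate early genes, which need no newly made protein, are transcribed within minutes. Many of these genes encode transcription factors such as the Egr and AP-1 proteins, and others encode phosphatases, receptor inhibitors and mRNA decay factors that damp the same signal. Protein kinase C can also activate NF-kB, whose inhibitor genes are among its own targets.

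Promoters of 6 of the genes that moved most are shown first. Each was picked with a match to a DNA element that transcription factors can bind, so they do not give how common matches are. Of the 20 largest rises 12 had a window, and 2 of these held a CArG box. Among the 20 largest falls it was 1 of 16. Whether the matches had a part in the response was not tested. Each line gives 150 bases before to 50 bases after a start site, on the strand of the gene, from RefSeq on GRCm38.p6, with the element in capitals. Dusp5, at chr19:53528995-53529194 on the plus strand, is shown for a pair of abutting CArG boxes at positions −82 to −63 from the start site. Egr2, at chr10:67537416-67537615 on the plus strand, has a CArG box at −72 to −63 of the start shown, which is 1 of several annotated. Errfi1, at chr4:150854920-150855119 on the plus strand, has the cyclic AMP response element TGACGTCA at −51 to −44. Il11, at chr7:4778092-4778291 on the minus strand, has the AP-1 element TGANTCA at −98 to −92. Cxcl1, at chr5:90891095-90891294 on the plus strand, has a pair of overlapping NF-kB matches at −71 to −61. Rnd3, at chr2:51149062-51149261 on the minus strand, is the one of the 6 whose RNA was lower at 1 h, and it too has a CArG box, at −100 to −91.
Dusp5: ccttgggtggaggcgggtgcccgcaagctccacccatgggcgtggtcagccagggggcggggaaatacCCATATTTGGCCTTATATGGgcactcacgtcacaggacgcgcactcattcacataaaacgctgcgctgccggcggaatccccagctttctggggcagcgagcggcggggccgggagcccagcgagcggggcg
Egr2: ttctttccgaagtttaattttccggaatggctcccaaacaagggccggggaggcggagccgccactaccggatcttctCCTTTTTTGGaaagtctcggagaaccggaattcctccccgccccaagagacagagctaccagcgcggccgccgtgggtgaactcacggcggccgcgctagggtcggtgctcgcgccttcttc
Errfi1: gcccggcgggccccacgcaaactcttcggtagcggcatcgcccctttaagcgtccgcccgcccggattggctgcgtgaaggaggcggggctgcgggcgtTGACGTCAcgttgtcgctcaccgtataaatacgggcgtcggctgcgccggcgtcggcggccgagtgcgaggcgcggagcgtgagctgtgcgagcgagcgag
Il11: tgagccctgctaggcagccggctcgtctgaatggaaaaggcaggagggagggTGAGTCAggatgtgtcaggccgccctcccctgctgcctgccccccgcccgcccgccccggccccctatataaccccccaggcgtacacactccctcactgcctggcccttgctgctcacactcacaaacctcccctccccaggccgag
Cxcl1: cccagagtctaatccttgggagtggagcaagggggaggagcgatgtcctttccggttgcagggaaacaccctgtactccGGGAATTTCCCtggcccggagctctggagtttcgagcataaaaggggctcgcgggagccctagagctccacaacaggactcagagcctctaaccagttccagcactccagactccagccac
Rnd3: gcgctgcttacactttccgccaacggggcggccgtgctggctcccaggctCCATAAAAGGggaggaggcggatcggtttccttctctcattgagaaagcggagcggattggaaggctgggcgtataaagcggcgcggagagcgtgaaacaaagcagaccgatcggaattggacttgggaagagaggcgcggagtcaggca

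A match to these letters is a description of the window and not a bound site. Windows of 300 bases (250 before and 50 after each start) were available for 152 of the 205 genes called higher at 1 h, 146 of the 164 called lower and 8819 of the 10902 tested. A gene was counted once if any of its windows held the element on either strand. The AP-1 element TGANTCA was present in 15.8% of the genes called higher, 1.37% of those called lower and 6.71% of all tested. An NF-kB site, searched as GGGRNNYYCC (R is A or G, Y is C or T), stood in 23.7% of the genes called higher. It stood in 10.3% of those called lower and 12.1% of all tested. TATAAA, searched on the gene's own strand only, was present in 12.5%, 6.85% and 6.04%. The CArG box was rarer, in 2.63%, 2.05% and 1.86%, and the Egr element GCGNGGGCG was held by 13.2%, 13.7% and 12.1%. For TGACGTCA the shares were 5.92%, 4.11% and 3.47%, and for the ETS element CCGGAAG 14.5%, 17.8% and 19.4%. GGGCGG, the Sp1 element, was found in 77.6%, 75.3% and 67.9%. Among the 12 genes of the 20 largest rises that had a window, 8 held GGGCGG, 6 an NF-kB site and 3 the AP-1 element. The CArG box, the Egr element and TATAAA were each in 2 of the 12, TGACGTCA in 1 and CCGGAAG in none. Genes called higher had a mean of 1.47 annotated starts, against 1.17 for those called lower and 1.28 for all, and a gene with more starts has more windows in which a match can fall.

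The fibroblast marker list had 10 of 10 genes tested and 9 detected on all 6 arrays, with a summed normalized signal of 18014 to 18575 at 1 h and 17364 to 19459 at 0 h, and none of the 10 was called. Genes listed as markers of other cell types also gave signal, with 5 of 7 tested macrophage and blood genes, 4 of 6 epithelial, 3 of 3 neural, 2 of 5 muscle, 2 of 4 endothelial, 2 of 5 cartilage and bone and 1 of 2 liver genes detected on all 6 arrays. The summed signal was 785 to 810 at 1 h and 688 to 859 at 0 h for macrophage and blood, 2551 to 2765 and 2504 to 2887 for muscle, 731 to 834 and 728 to 788 for endothelium, and 387 to 403 and 377 to 416 for neural cells. Ptprc (blood), Pecam1 and Cdh5 (endothelium), Epcam and Krt5 (epithelium), Alb (liver) and Myod1 (muscle) were not among the tested genes. Of marker genes of other cell types 32 were tested and 2 called, Sox9 and Cldn4, both higher at 1 h. The summed signal of the cartilage and bone list, 5 of 9 tested, was 2301 to 2760 at 1 h and 1002 to 1059 at 0 h, where Sox9 was the only member called and the other 4 differed by −0.34 to 0.17, and that of the epithelial list, 6 of 10 tested, 289 to 342 and 260 to 297. Mean raw signal was 277 to 286 on the 1 h arrays and 296 to 357 on the 0 h arrays, and 16675 to 17771 and 17889 to 18348 probes were detected. On both measures every 1 h array lay below every 0 h array, and the part of this in the results was not tested beyond the scalings given below.

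After 1 h of TPA 369 of 10902 genes were called (limma, Benjamini-Hochberg adjusted p below 0.05), which is 3.38% of those tested. Of these 205 were higher (1.88%) and 164 lower (1.5%). Rises were the larger changes, with 60 genes at least doubled and 10 at least halved, and 11 genes at least 4-fold higher with 1 at least 4-fold lower. The median called rise was 0.67 and the median called fall −0.53 on the log2 scale, with the median over all genes at −0.01. In 367 of the 369 the 3 arrays at 1 h did not overlap the 3 at 0 h, a separation that 16.5% of all tested genes showed (7.55% higher and 8.96% lower). An added requirement of at least 1.5-fold left 123 higher and 61 lower (1.69%). Of the called genes 16 were detected on no 0 h array and 7 on no 1 h array.

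**Figure D1:**
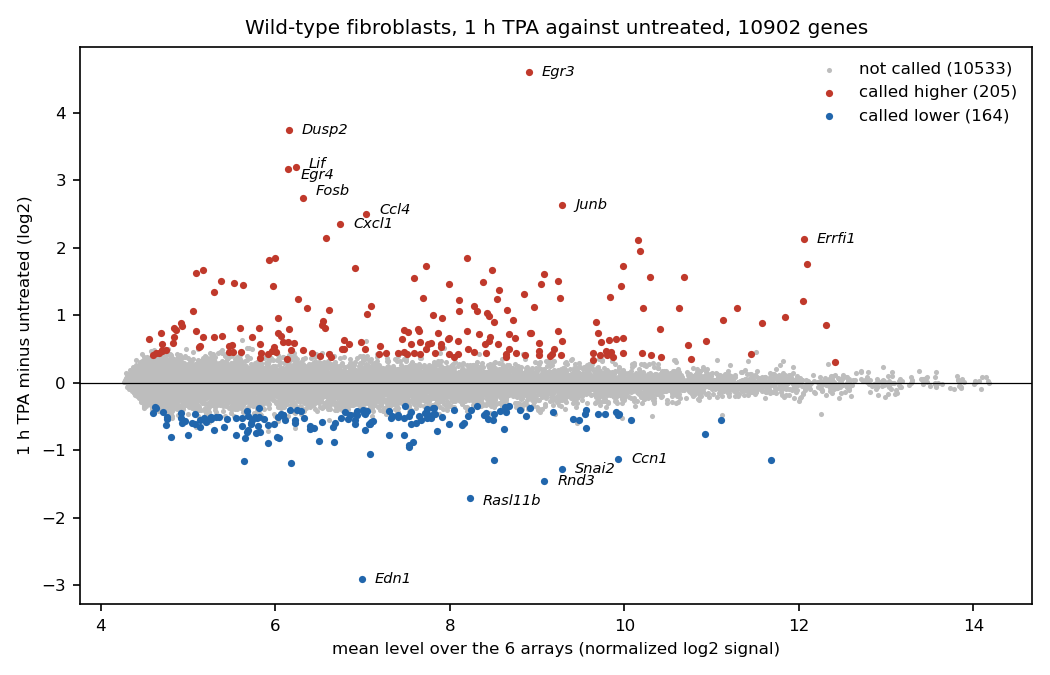
Difference between 1 h of TPA and 0 h (log2, vertical axis) for 10902 genes, against their mean level over the 6 wild-type arrays (normalized log2 signal, horizontal axis). Genes called higher (205, red) reach 4.60 for Egr3, and genes called lower (164, blue) reach −2.90 for Edn1.

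The balance of rises and falls depended on the scaling. With every array set to a common median over all probes in place of quantile normalization, 112 genes were called higher and 1269 lower, and the median over all genes moved to −0.24. The share of called genes that were higher was then 8.11%, against 55.6%. Leaving out the second 1 h array or the second 0 h array gave 106 and 103 falls in place of 164, and leaving out any single array left 157 to 195 rises. Sizes also depended on background correction. Without it 66 of the 129 named called genes had differences more than 1.5 times smaller, for example Dusp2 with 1.66 in place of 3.74 and Edn1 with −1.61 in place of −2.90, while Errfi1 kept 2.08 of 2.13. On the authors' deposited log2 values this held for 62 of the 129.

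The list of Egr zinc-finger factors had the highest median among the 30 lists described, which were chosen with earlier results of these data known. Of 6 tested genes in the list of Egr factors and their Nab corepressors 5 rose, against 1.88% of all genes tested. None fell, and the list median was 1.74. Egr3 read 11.30, 11.12 and 11.18 on the 1 h arrays, against 6.64, 6.47 and 6.71 on the 0 h arrays (normalized log2 signal). This was the largest change among the genes tested, a rise of 4.60 ± 0.13 (log2, standard error, n = 3 each, limma adjusted p = 6.89e-16), or 24.2-fold with a 95% interval of 20.1 to 29.0. A second probe of Egr3 gave 0.08 with an adjusted p of 0.93, and the mean of both probes gave 2.34.

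Egr4 read 7.86, 7.65 and 7.67 at 1 h, against 4.63, 4.61 and 4.44 at 0 h, where 1 of 3 arrays detected it, a rise of 3.17 ± 0.11 (limma adjusted p = 6.87e-14). Egr1 read 13.00, 12.87 and 13.03 at 1 h, against 11.20, 11.26 and 11.16 at 0 h, and rose by 1.76. Egr2 read 10.76, 10.82 and 10.98 at 1 h, against 9.0, 9.11 and 9.26 at 0 h, and rose by 1.73. The groups did not overlap for any of the 4. Nab2, which binds Egr proteins and restrains them, rose by 0.73.

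RNA of several subunits of AP-1, the dimer of Fos and Jun proteins, was higher at 1 h. Of 7 tested subunit genes 5 rose, against 1.88% of all genes tested, and none fell, with a median of 0.77. Fosb read 7.81, 7.41 and 7.82 at 1 h, against 4.88, 5.06 and 4.91 at 0 h, a rise of 2.73 ± 0.12 (limma adjusted p = 1.48e-12). Junb read 10.69, 10.68 and 10.46 at 1 h, against 8.10, 7.90 and 7.92 at 0 h, and rose by 2.64. Both rises were larger than those of Fos and Jun. Fos read 7.36, 7.60 and 8.01 at 1 h, against 6.27, 6.62 and 6.69 at 0 h, and its rise was 1.13 ± 0.16 (limma adjusted p = 1.04e-04). Jun read 8.65, 8.84 and 8.25 at 1 h, against 7.96, 7.84 and 7.62 at 0 h, a rise of 0.77. Its groups did not overlap, which held with a rise for 7.55% of all tested genes. Fosl2 rose by 0.45, a call that 5 of the 6 single-array omissions removed (highest adjusted p = 0.17), and its second probe gave 0.12.

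**Figure D2:**
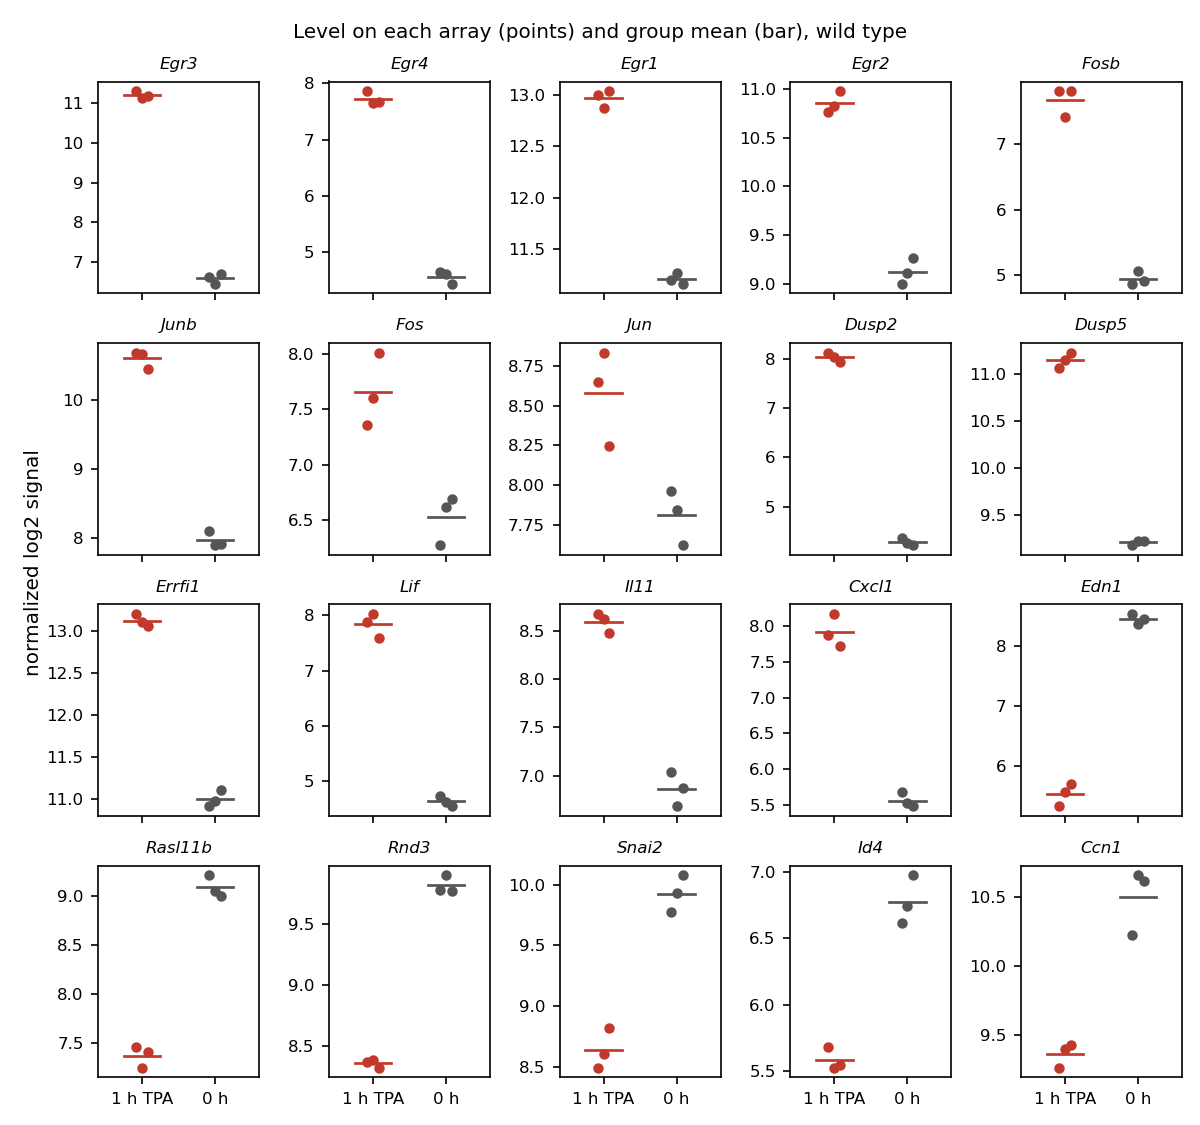
Normalized log2 signal (vertical axis, a separate scale for each panel) of 20 named genes on each wild-type array (points) with the group mean (bar), 1 h of TPA on the left and 0 h on the right. The 3 points of one group lie apart from the 3 of the other in every panel, from Egr3 with a difference of 4.60 to Edn1 with −2.90. Such separation was required of the 20 largest rises and falls, and 16.5% of all tested genes showed it.

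A minority of other early transcription factors and nuclear proteins rose, in lists set against 1.88% called higher over all genes tested. Bhlhe40, a repressor that also acts in the circadian clock, read 11.24, 10.99 and 11.40 at 1 h, against 8.97, 9.07 and 9.24 at 0 h, and rose by 2.12. The stress factors Atf3 (1.5, detected on 1 of 3 arrays at 0 h), Cebpb (1.27) and Ddit3 (1.22) rose in a list of ATF, C/EBP and Maf factors in which 4 of 20 rose and none fell. Arc (1.45), Per1 (1.10) and Nr4a2 (0.81), known from stimulated neurons as activity-regulated genes, were among 4 of 9 that rose. In the list of other early nuclear genes 8 of 32 rose, among them Ier3 (1.20), the AXIN1-induced factor Csrnp1 (1.10), the Notch effector Hes1 (0.90) and the histone demethylase Kdm6b (0.73), and 1 fell. Tcim, a small protein of early response described in human cells, rose by 2.14.

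Several textbook early genes did not pass the threshold at this time. Myc was 6.12, 6.29 and 6.57 at 1 h, against 6.37, 5.89 and 5.98 at 0 h, a difference of 0.25 (limma adjusted p = 0.533) with overlapping groups. Srf differed by −0.23 (adjusted p = 0.368) and Klf6 by −0.22 (adjusted p = 0.37), and Maff by 0.52 (adjusted p = 0.0739). Krueppel-like factors went both ways, with Klf9 (0.67) and Klf16 (0.64) higher and Klf2 (−0.61) and Klf3 (−0.52) lower among 12 tested. The call of Klf3 was lost in 4 of the 6 omissions of an array, and under median scaling neither Klf9 nor Klf16 was called. The second probe of Klf16 gave 0.26.

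Genes of the dual-specificity phosphatases, which remove phosphate from MAP kinases, rose in 5 of 11 tested cases, against 1.88% of all genes. None was lower, and the list median was 0.26. Dusp2, a nuclear phosphatase of ERK and other MAP kinases, read 8.12, 8.04 and 7.92 at 1 h, against 4.37, 4.27 and 4.23 at 0 h, where no array detected it. With the background correction used, this probe rose at least 10.7-fold (limma adjusted p = 6.89e-16), counted from the lowest signal of detected probes. A second probe of Dusp2 rose by 2.49 (log2), and the main probe by 1.76 on the authors' deposited values. Dusp5, the nuclear ERK phosphatase that the study deleted in its other genotype, read 11.07, 11.16 and 11.23 at 1 h, against 9.18, 9.21 and 9.22 at 0 h. Its rise was 1.95 ± 0.09, or 3.86-fold (95% interval 3.38 to 4.41, adjusted p = 4.61e-12). Dusp4, a further nuclear member, rose by 1.32, the cytoplasmic ERK phosphatase Dusp6 by 1.11, and Dusp10, which acts on JNK and p38, by 0.68 (second probe 0.49, adjusted p = 0.153). Dusp1, often quoted as an immediate early gene, read 11.03, 11.05 and 11.26 at 1 h, against 11.14, 11.34 and 11.34 at 0 h, a difference of −0.16 (95% interval 0.78 to 1.03 as a ratio, adjusted p = 0.541).

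Inhibitors that act at receptors and adaptors rose in 5 of 17 cases and fell in 1, against 1.88% and 1.5% of all genes. Errfi1, which binds and blocks the EGF receptor, read 13.20, 13.11 and 13.06 at 1 h, against 10.91, 10.97 and 11.10 at 0 h, and rose by 2.13 ± 0.09 (limma adjusted p = 7.06e-13). Spry4, a Sprouty inhibitor of Ras signalling, read 6.90, 6.96 and 6.89 at 1 h, against 4.73, 5.19 and 5.29 at 0 h, a rise of 1.85. The cytokine signalling inhibitors Cish (1.03) and Socs3 (0.77) rose, and Lrig3, a membrane protein of the family that restrains growth factor receptors, fell by 0.56 on its main probe (second probe −0.10). Of 24 tested genes for protein kinase C, RasGRP, Ras, Raf, MEK and ERK none rose and 1 fell, with a range of −0.55 to 0.22, a count near the 3.38% called over all genes. Rasgrp1 was the one that fell (−0.55), a call lost in 5 of the 6 omissions of an array (highest adjusted p = 0.168). Prkca, which encodes a phorbol ester receptor, differed by 0.20 (adjusted p = 0.532).

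Genes of secreted signals were among the rises. Of 28 tested genes for cytokines and their receptors 5 rose, against 1.88% of all genes tested, and none fell. Lif, a cytokine of the interleukin-6 family, read 7.88, 8.02 and 7.60 at 1 h, against 4.73, 4.63 and 4.55 at 0 h with 2 of 3 arrays detecting it, a rise of 3.19 ± 0.13 (limma adjusted p = 5.83e-13). Other probes of Lif rose by 1.21 and 2.68. Il11, of the same family, read 8.68, 8.62 and 8.48 at 1 h, against 7.04, 6.68 and 6.87 at 0 h, and rose by 1.73. Csf2, which encodes GM-CSF, was detected on no 0 h array and rose at least 2.45-fold with the background correction used. On the authors' deposited values Csf2 rose by 0.53 (log2). Tnfsf11, which encodes RANKL, rose by 0.91. Clcf1 rose by 0.69, a call lost in 3 of the 6 array omissions, and its other probes gave 0.21 and 0.40 without passing.

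Chemokine genes rose in 6 of 17 cases, against 1.88% of all genes tested, with none lower and a median of 0.31. Ccl4 read 8.36, 8.31 and 8.19 at 1 h, against 5.99, 5.58 and 5.79 at 0 h, a rise of 2.50 (second probe 1.09). Cxcl1, a neutrophil attractant, read 7.88, 8.16 and 7.71 at 1 h, against 5.69, 5.52 and 5.48 at 0 h, a rise of 2.35. Ccl2 rose by 1.25. Ccl3 and Cxcl2 were undetected at 0 h and rose at least 2.62-fold and at least 1.2-fold, and a second probe of Cxcl2 did not pass. Ccl7 rose by 0.43, a call lost in 4 of the 6 array omissions, and its second probe gave 0.07.

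Growth factor ligands rose in 8 of 32 cases with 1 lower, against 1.88% higher and 1.5% lower over all genes. Of 21 growth factor receptor genes tested none was called (range −0.36 to 0.24), where 3.38% of all genes were, and the difference between ligands and receptors was not tested. Pdgfb read 6.82, 6.76 and 6.92 at 1 h, against 5.04, 5.15 and 4.86 at 0 h, and rose by 1.82 on its main probe and by 0.91 on the mean of both probes. Stc1, a secreted glycoprotein hormone, rose by 1.67, Vegfa by 1.56 and Hbegf, a ligand of the EGF receptor, by 1.11 (second probe 0.57, adjusted p = 0.142). The enzyme that makes hyaluronan, Has2, read 10.78, 10.58 and 10.67 at 1 h, against 9.24, 9.22 and 9.28 at 0 h, and rose by 1.43. Of 26 genes for plasminogen activators, metalloproteinases and their inhibitors 4 rose and none fell. They included the stromelysin Mmp10 (1.55), the urokinase inhibitor Serpinb2 (1.02 ± 0.12, adjusted p = 6.69e-06) and urokinase itself, Plau (0.58). The remaining call, of Mmp13, was lost in 3 of the 6 array omissions, and its other probes gave 0.17 and 0.15 without passing. Serpinb2 read 7.55, 7.65 and 7.51 at 1 h, against 6.73, 6.48 and 6.42 at 0 h. None of 23 tested extracellular matrix genes was called (range −0.34 to 0.46), a count near the 3.38% called over all genes.

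**Figure D3:**
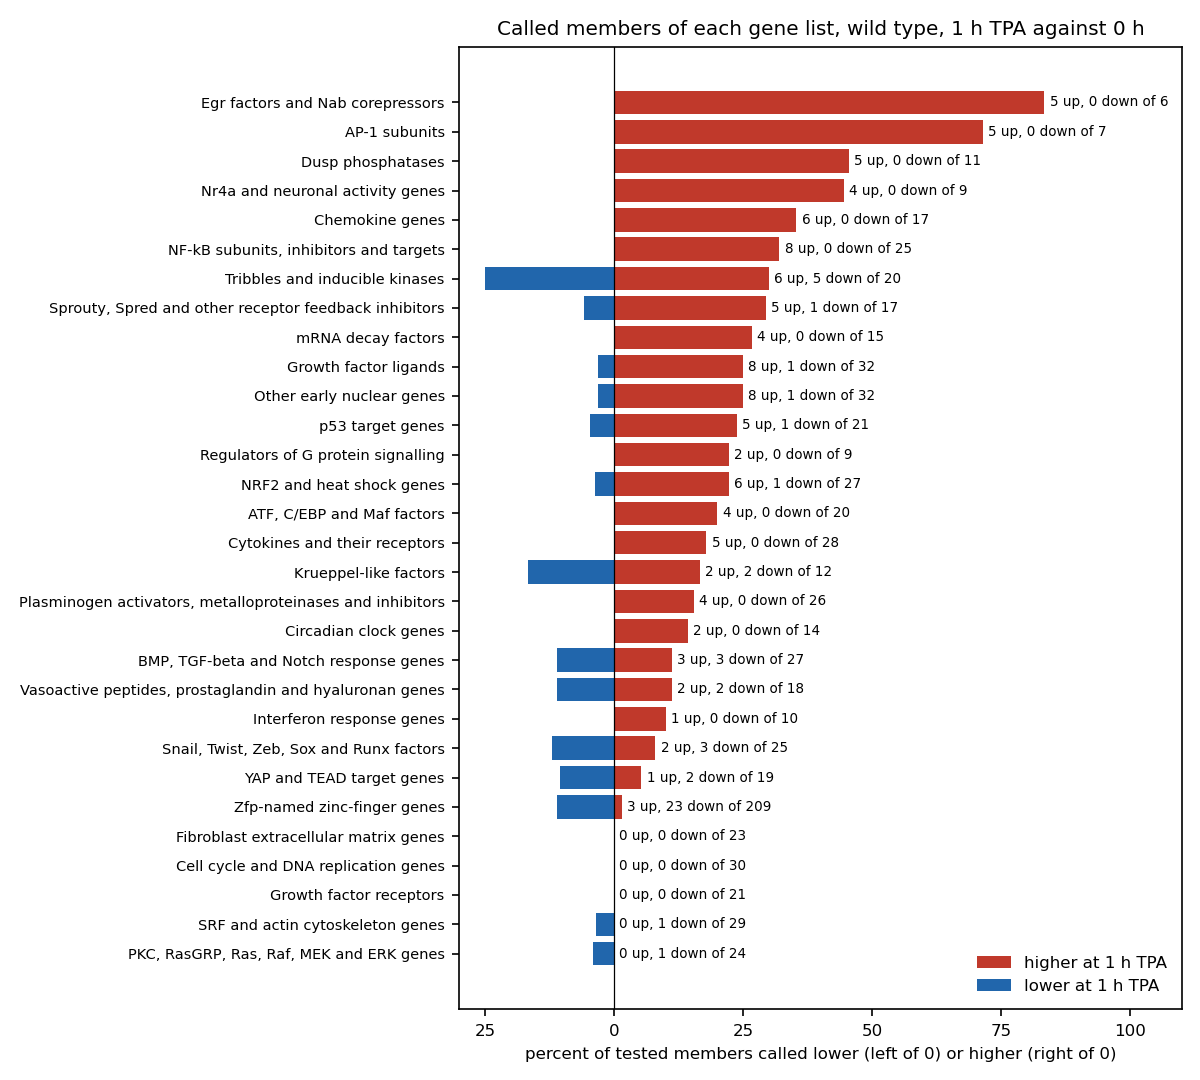
Percent of the tested members of 29 gene lists and the Zfp-named genes called higher (red, right of 0) or lower (blue, left of 0) after 1 h of TPA in wild-type cells, with the counts beside each bar. The Egr list has 5 of 6 higher and the AP-1 list 5 of 7, set against 1.88% higher and 1.5% lower over all genes tested.

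NF-kB genes rose in 8 of 25 cases, against 1.88% of all genes tested, with none lower and a median of 0.22. Nfkbia, the inhibitor that NF-kB itself induces, read 9.09, 9.34 and 8.95 at 1 h, against 7.49, 7.19 and 7.16 at 0 h, and rose by 1.85 ± 0.12 (limma adjusted p = 1.66e-09). A second probe of Nfkbia rose by 0.97. Tnfaip2 (1.08), the adaptor Traf1 (0.83), the subunit Relb (0.81) and the inhibitor Nfkbid (0.68) rose as well. Nfkbie, another inhibitor, was undetected at 0 h and rose at least 1.69-fold, and second probes of Nfkbie and Traf1 did not pass. Tnfaip3, which encodes the NF-kB brake A20, differed by 0.23 with overlapping groups (adjusted p = 0.635). Of the mRNA decay factors 4 of 15 rose, set against the same 1.88%. The largest rises were those of Zfp36 (1.51), whose product tristetraprolin removes AU-rich mRNAs, and of the endonuclease Zc3h12a (1.23).

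Stress genes rose in part, in lists set against 1.88% called higher and 1.5% called lower over all genes. Of 27 genes regulated by NRF2 or heat shock 6 rose and 1 fell. Hmox1, which degrades haem, read 9.80, 9.92 and 9.95 at 1 h, against 8.42, 8.09 and 8.32 at 0 h, a rise of 1.62. Ddit4, an inhibitor of mTORC1, rose by 1.46, Srxn1 by 1.25 and the metallothionein gene Mt1 by 0.88. In the list of p53 targets 5 of 21 rose and 1 fell: the apoptosis activator Bbc3 (1.38, or 0.50 on the mean of its 3 probes), the kinase gene Plk3 (1.12), Gadd45a (1.00), Mdm2 (0.97) and Sesn2 (0.44, a call lost in 2 of the 6 array omissions and on the mean of its 3 probes) were higher. A further probe of Mdm2 gave 0.91 and another 0.15. Cdkn1a, the p53 target that arrests the cell cycle, differed by 0.23 (adjusted p = 0.361) on its brightest probe and by 0.31 (adjusted p = 0.226) and 0.59 (adjusted p = 0.0045) on the other probes, the last of which passed. None of 30 cell cycle and DNA replication genes was called (range −0.36 to 0.30), a count near the 3.38% called over all genes.

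Among falls, Edn1 stood well apart. Edn1, the gene of the endothelin-1 precursor, read 5.33, 5.58 and 5.70 at 1 h, against 8.53, 8.36 and 8.44 at 0 h, a fall of 2.90 ± 0.11 on the log2 scale (limma adjusted p = 1.12e-13), or 7.49-fold lower. Adm, the gene of the vasoactive peptide adrenomedullin, fell by 0.88. Rasl11b and Rnd3, genes of small GTPases, were also among the 20 largest falls. Rasl11b, a Ras-like gene, read 7.46, 7.25 and 7.41 at 1 h, against 9.20, 9.05 and 9.0 at 0 h, and fell by 1.71. Rnd3, which encodes an atypical small GTPase that loosens actin stress fibres, read 8.37, 8.38 and 8.32 at 1 h, against 9.78, 9.90 and 9.77 at 0 h, and fell by 1.46. The Cdc42 effector genes Cdc42ep3 (−0.77), Cdc42ep2 (−0.60) and Cdc42ep1 (−0.59) were lower as well. The call of Cdc42ep1 was lost in 5 of 6 array omissions, and its second probe gave −0.01 (adjusted p = 0.99). In the opposite direction Rrad, a Ras-like GTPase, rose by 1.43.

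Transcriptional regulators of cell identity fell in small numbers. Snai2, a repressor that marks mesenchymal cells, read 8.49, 8.60 and 8.82 at 1 h, against 9.77, 9.93 and 10.08 at 0 h, and fell by 1.28 ± 0.11 (limma adjusted p = 9.15e-08). Id4, which blocks basic helix-loop-helix factors and responds to BMP, read 5.68, 5.52 and 5.55 at 1 h, against 6.61, 6.74 and 6.98 at 0 h, and fell by 1.19 (second probe −0.67). Runx1t1, a corepressor, fell by 0.96 on its main probe and missed the threshold on its second. Sox9, the cartilage and progenitor factor, went the other way and read 11.26, 11.05 and 10.94 at 1 h, against 9.52, 9.49 and 9.54 at 0 h, a rise of 1.57. In this list of Snail, Twist, Zeb, Sox and Runx factors 2 of 25 rose and 3 fell, and among BMP, TGF-beta and Notch response genes 3 of 27 rose and 3 fell. Over all genes tested 1.88% were called higher and 1.5% lower.

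Further falls among the 20 largest came from varied families. Gadd45g, a stress sensor related to Gadd45a, read 10.96, 11.21 and 11.16 at 1 h, against 12.24, 12.15 and 12.38 at 0 h, and fell by 1.15, while Gadd45a rose. Ccn1, a matricellular protein and YAP target, read 9.26, 9.40 and 9.43 at 1 h, against 10.22, 10.66 and 10.62 at 0 h, and fell by 1.14. In its list of 19 YAP and TEAD targets 2 fell and 1 rose, against 1.5% and 1.88% of all genes. Ankrd1 differed by −0.21 (adjusted p = 0.376). Lpar6, a receptor for lysophosphatidic acid, fell by 1.14, the endosomal protein gene Plekhf1 by 1.05, Trim59 by 0.93, Ppp1r3d, which directs a phosphatase to glycogen, by 0.90, and Prickle1, of the planar polarity pathway, by 0.78 (second probe −0.60, adjusted p = 0.0649). Of 29 SRF and actin cytoskeleton genes 1 was lower and none higher, with a median of −0.05, which is near the 3.38% called over all genes.

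Kinases of the Tribbles and inducible group split, with 6 of 20 higher and 5 lower, against 1.88% and 1.5% over all genes tested. The pseudokinase gene Trib1 (1.34) rose and its relative Trib2 (−0.72) fell. Plk3 (1.12) and Plk2 (−0.56) parted likewise, although the call of Plk2 was lost in 4 of the 6 array omissions. Stk17b (0.95), Stk40 (0.90) and Sgk1 (0.85), a kinase gene known to respond to serum and glucocorticoid, were higher. Over all 30 lists, 577 of 756 distinct genes were tested, 96 were called higher and 28 lower.

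Zinc-finger genes named Zfp with a number formed a broad, shallow group of falls that no list covered. The group was noticed after the values were seen and is given as a description. Zfp36, a decay factor, was left out. Of 209 such genes tested 23 were called lower (11.0%, against 1.5% of all genes) and 3 higher, Zfp703 (0.74), Zfp655 (0.61, second probe −0.09) and Zfp948 (0.52). The 209 had a median of −0.13, and 152 of them (72.7%) were below 0, against 51.6% of all genes. The shift was present on each 1 h array, with medians of −0.12, −0.18 and −0.11 relative to the 0 h mean. Medians over all genes on these arrays were −0.0004, −0.0137 and −0.0123. The 0 h arrays gave −0.01, −0.01 and 0.03, but lie near 0 by construction because they set that mean. Knockout arrays at 0 h gave 0.03, −0.06 and −0.01 for the Zfp-named genes. Signal is low for these genes, so 3441 other genes within their interquartile range of mean level (4.83 to 6.79) were set beside them, and 56 of these were called lower (1.63%) with a median of −0.01.

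Among the Zfp genes of the 20 largest falls were Zfp281 (−0.87), Zfp97 (−0.86), Zfp41 (−0.82) and Zfp30 (−0.81). Zfp30 read 5.69, 5.56 and 5.60 at 1 h, against 6.32, 6.47 and 6.48 at 0 h. Zfp354a (−1.16) and Zfp322a (−0.82), whose names carry a letter, were outside the count. The 23 falls ranged from −0.87 to −0.35 with a median of −0.54. At 3 h the same 23 genes had a median of −0.01, with 4 of them called at that time. In knockout cells, whose arrays are in neither of the groups compared but shared the normalization, filter and variance estimate, 21 of the 23 were called lower at 1 h (2.85% of all genes were) with a median of −0.72. The lower calls numbered 16 to 21 when 1 array was left out, beside 103 to 161 over all 10902 genes. They numbered 75 under median scaling, beside 1269 over all genes, and 9 with a requirement of 1.5-fold, beside 61.

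**Figure D4:**
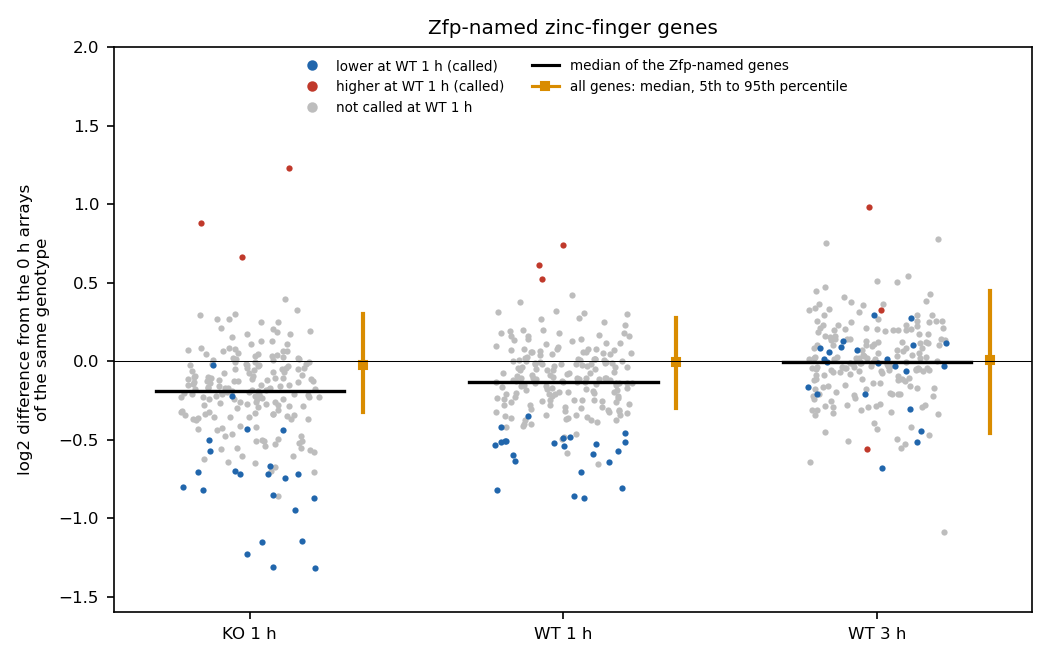
Log2 difference from the 0 h arrays of the same genotype (vertical axis) for 209 Zfp-named genes (points, coloured by their call in wild-type cells at 1 h), with their median (black bar) and the median and 5th to 95th percentile of all genes (orange). The medians of the Zfp-named genes are −0.19 in knockout cells at 1 h, −0.13 in wild-type cells at 1 h and 0.00 in wild-type cells at 3 h.

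Values at 3 h are set beside those at 1 h for the same genes; both use the same 0 h arrays, and 1744 genes (16%) were called at 3 h. Most Egr and AP-1 factors stood nearer to 0 h, or below it, at 3 h. Egr1 stood 1.76 above 0 h at 1 h and −0.10 at 3 h, Egr4 3.17 and 0.10, Atf3 1.5 and −0.11, and Fos 1.13 and −0.99. Egr3 kept 2.15 of its 4.60. Zfp36 stood at 1.51 and −0.28, and Csrnp1 at 1.10 and −0.59.

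Several secreted and stress genes were further from 0 h at the later time. Pdgfb stood at 1.82 at 1 h and 3.13 at 3 h, Mmp10 at 1.55 and 2.84, Stc1 at 1.67 and 2.75, and Hmox1 at 1.62 and 2.51. Errfi1 (2.13 and 1.92), Spry4 (1.85 and 1.49) and Dusp5 (1.95 and 1.39) were called higher at both times. Values lay further below 0 h at 3 h for Edn1 (−2.90 and −3.76), Rnd3 (−1.46 and −2.13), Ccn1 (−1.14 and −2.26) and Cdc42ep3 (−0.77 and −3.33). Some genes uncalled at 1 h were far from 0 h at 3 h, such as Ankrd1 (−0.21 and −2.79), Dusp1 (−0.16 and −1.82) and Srf (−0.23 and −1.11). The difference between 1 h and 3 h was not itself tested.

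**Figure D5:**
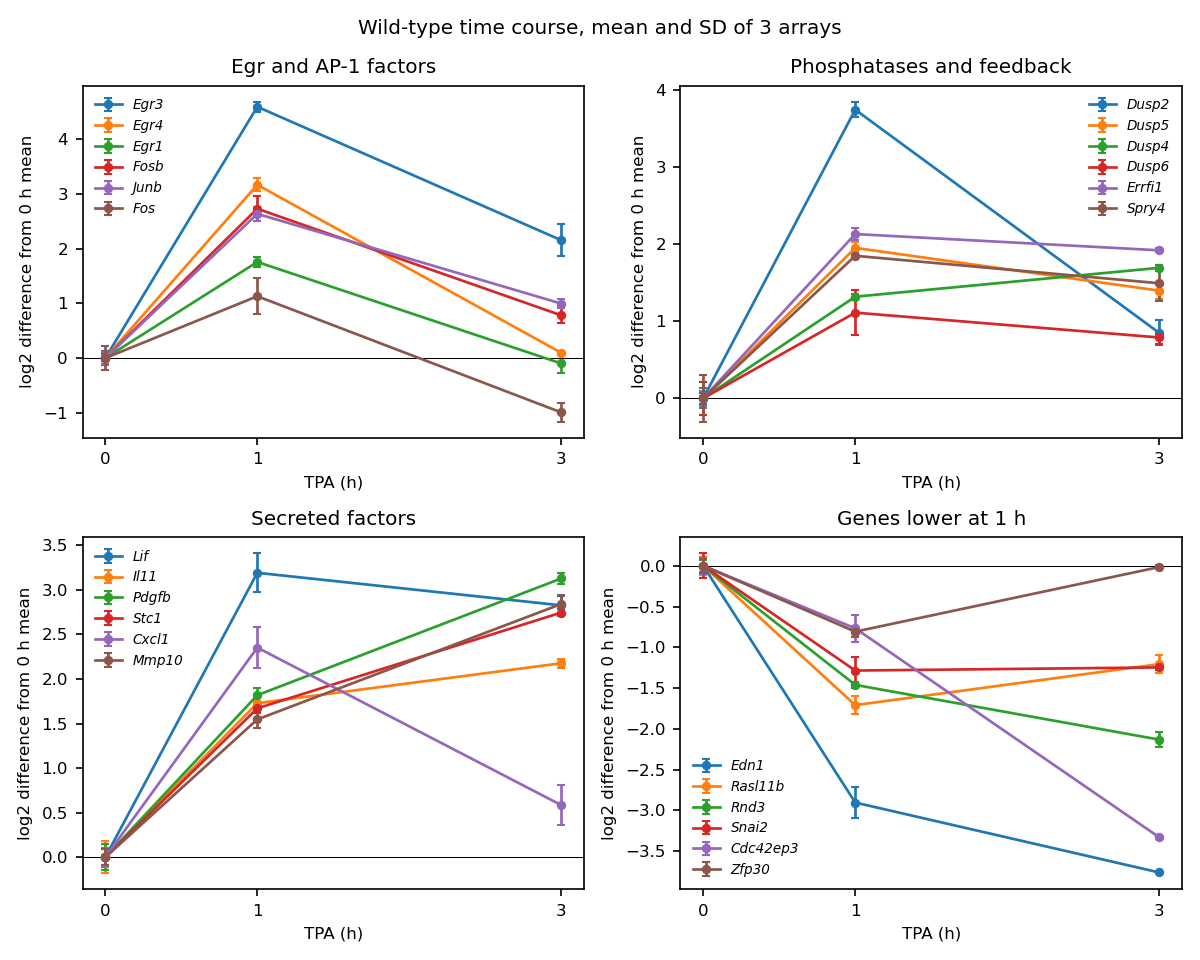
Log2 difference from the 0 h mean (vertical axis; points are means and bars SD of 3 wild-type arrays) at 0, 1 and 3 h of TPA (horizontal axis) for 24 named genes in 4 groups. Egr and AP-1 factors have their highest means at 1 h, for example Egr1 with 1.76 at 1 h and −0.10 at 3 h, whereas Pdgfb has 1.82 at 1 h and 3.13 at 3 h and Edn1 −2.90 and −3.76.

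Knockout cells, hybridised to other arrays, gave a second set of 1 h responses, with 590 genes called (5.41%), 279 higher (2.56%) and 311 lower (2.85%). Of these, 173 rises were shared, which is 62.0% of the knockout rises and 84.4% of the wild-type rises. Shared falls numbered 115, or 37.0% of the knockout falls and 70.1% of the wild-type falls. No gene was called in opposite directions. Dusp5 itself was induced in both genotypes, by 1.87 in knockout and 1.95 in wild-type cells, from a lower level in the knockout. Its signal there was 10.04, 10.20 and 10.31 at 1 h and 8.36, 8.28 and 8.31 at 0 h, below the wild-type arrays of the same time. The sources used here do not place this probe inside or outside the deletion, so its signal does not check the genotype.

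The difference between the 1 h responses, taken as knockout minus wild type, passed the threshold for 3 genes (0.0275%), all with the larger rise in the knockout. Egr4 rose by 4.82 in knockout and 3.17 in wild-type cells, a difference of 1.65 ± 0.16 (limma adjusted p = 2.07e-05). Dusp2 rose by 4.86 in knockout and 3.74 in wild-type cells, a difference of 1.12 ± 0.14 (adjusted p = 8.96e-04), and Csf2 by 2.72 and 1.63, a difference of 1.09 ± 0.15 (adjusted p = 1.28e-03). For Dusp2 and Csf2, undetected in wild-type cells at 0 h, these fitted rises depend on the background correction, and the difference for Csf2 was 0.54 on the authors' deposited values. Under median scaling Dusp2 (adjusted p = 0.354) and Csf2 (adjusted p = 0.774) were no longer called. Zfp36 (0.87, adjusted p = 0.098) and Fos (0.85, adjusted p = 0.464) did not pass, with 95% intervals of 0.53 to 1.21 and 0.37 to 1.33 before adjustment for the number of genes. For Egr1 the difference was 0.15, with an interval of −0.14 to 0.45.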

How the data were processed

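The deposited table of unnormalized values holds, per the file headers, summary probe intensity and its detection p-value array by array. The series matrix holds log2 values as deposited by the authors, whose normalization is not given in the sources used here, and served as an alternative. Intensities were processed with neqc in limma 3.58.1 (R 4.3.3): normexp background correction from detection p-values, quantile normalization, offset 16 and log2. Probes with detection p below 0.05 on at least 3 of 18 arrays were kept (20239), of which 17288 carried 1 gene symbol. Each of 10902 genes took its brightest kept probe, and 4238 had several. Of 45281 probes on the array 34885 have 1 gene symbol in GEO's platform annotation, 18 several and 10378 none, and 34807 were matched to RefSeq.

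limma modelled the 6 groups over all 18 arrays together (12 residual degrees of freedom, moderated variance), with p-values adjusted by Benjamini-Hochberg within each comparison. A run on simulated independent normal values checked the code alone and lends no support to the results. An at-least fold sets the mean at 1 h against the lowest signal of detected probes. It holds for the brightest probe after background correction, and is no bound for other probes or other processing. Counted as named were Fos, Egr1, Dusp5, Dusp6, Serpinb2 and the 20 largest rises and falls with separate groups. Up to 6 called members of each list and the called response differences were counted too. Not all of these appear in the text. Of the uncalled list members detected on all 6 arrays only a selection is named. Names outside these groups are said to be so, except markers. The members and lists were chosen with earlier results of these data known. Alternatives were the deposited values, no background correction, other scalings, other detection filters, the mean of probes, a variance trend, array weights, fewer arrays, a replicate block, a fold threshold and each array left out. The 6 arrays normalized alone were added after seeing the data.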

Additional observations from a re-analysis of the deposited data

Results flagged for a closer look

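The rise at 1 h of TPA differed between genotypes, by the test of the difference itself, for Egr4 (1.65, knockout minus wild type, log2), Dusp2 (1.12) and Csf2 (1.09). Dusp2 and Csf2 were detected on no wild-type 0 h array and Egr4 on 1 of 3, so these sizes depend on the background correction: on the authors' deposited values they were 1.39 for Egr4, 0.96 for Dusp2 and 0.54 for Csf2. Among 10902 genes these 3 passed limma's adjusted threshold, and 640 had an unadjusted p below 0.05. Dusp2 and Csf2 kept their call under every alternative run except median scaling, where their adjusted p was 0.354 and 0.774.

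Probes without a single gene symbol were outside the comparisons above. Of 2951 such kept probes 74 were called between 1 h of TPA and 0 h in wild-type cells (2.51%), 36 higher and 38 lower, with a largest rise of 2.85 and a largest fall of 1.04, that is a difference of −1.04. They are not named here.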

How the results depend on the processing

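The number of genes called between 1 h of TPA and 0 h (369) moved to 1381 under median scaling, 572 with array weights and 184 with an added 1.5-fold threshold, and lay between 265 and 442 under the other settings. Rises (205) moved to 112 and 123 under median scaling and the added threshold. Falls (164) moved to 1269, 275 and 61 under median scaling, array weights and the added threshold, and to 109 with the 6 arrays normalized alone. Leaving out 1 array gave 267 to 356 called genes, 157 to 195 rises, 103 to 161 falls and 3 to 4 response differences. The response differences (3) numbered 5 with the deposited values, 5 without background correction and 1 under median scaling. Of 129 named called genes 108 to 129 kept their call and none changed sign. Uncalled Myc, Tnfaip3 and Prkca turned to −0.026, −0.073 and −0.083 under median scaling. With the replicate block 425 genes were called and all 129 named calls held, but the numbers did not pair the arrays: deviations of same-numbered arrays correlated at 0.03, 0.08 and 0.43, and the second 1 h array correlated best with the first 0 h array (0.32). With 3 arrays per group and low signal for many genes, small differences may have been missed. The causes were not tested.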
